A study of Drosophila melanogaster with 12 samples.

Results

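The genes described here are 31 genes of the PIWI-interacting RNA (piRNA) pathway, listed by symbol and identified in the BDGP6 annotation of Drosophila melanogaster. They were sorted by known role into a somatic arm of 16 genes, which act in the somatic cells of the ovary and mostly in germ cells as well, and a germline arm of 15 genes, whose piRNA role is known from germ cells. Values were found for 30 of the 31, all 16 of the somatic arm and 14 of the germline arm, among 13726 genes with values in all. vas, the germline helicase that builds the perinuclear nuage, was not matched to a row and is not analysed here. The 12 RNA-seq libraries came from cells sorted out of the germarium, the tip of the ovary where germline stem cells sit in their niche, with 2 libraries in each of 6 groups.

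Terminal filament cells and cap cells (TFCs-CpCs) were the cells of highest GFP signal from bab1-Gal4, UASp-tau::mGFP6 ovaries, taken at 1 week (1w) and 4 weeks (4w) of age. Escort cells (ECs), the somatic cells that wrap early germ cells, were GFP-positive cells at 1w and 4w of females with lexAop-mCD8::GFP (over w, on a y w chromosome) driven by ptc-LexA, which was heterozygous. The RNAi experiment compared control ECs with ECs of females that carried UAS-Smu1 RNAi in addition. Both genotypes had 13×LexAop-mCD8::GFP over w, ptc-LexA over tub-Gal80ts, and ptc-Gal4. They were raised at 18 °C and moved to 29 °C for 2 weeks after eclosion, so that Gal4 was released from Gal80ts in the adult. Smu1 encodes a factor of the spliceosome. Each library pooled many ovary pairs, and the RNA was amplified by PCR. The bab1-Gal4 driver is also weakly active in ECs, so that each group is a cell fraction rather than a pure cell type.

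piRNAs are small RNAs that guide Argonaute proteins of the PIWI class to transposon RNA. In somatic ovarian cells, long single-strand precursors are gathered in Yb bodies, cut at the surface of mitochondria and loaded into Piwi, which enters the nucleus and silences transposons at the chromatin. Germ cells share this route and add another: heterochromatic clusters are transcribed from both strands, and Aubergine and AGO3 amplify piRNAs in a ping-pong cycle in the nuage.

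Levels are given in cRPKM, the corrected RPKM that the authors deposited, which allow comparison between genes because they are divided by mappable length. The libraries held 12078227 to 52487930 counted reads. Replicates correlated with r = 0.988 in control ECs and r = 0.984 in Smu1 RNAi ECs (Pearson, log2(cRPKM + 1), across genes) and with r between 0.882 and 0.933 in the other 4 groups. Most listed markers followed the sort labels at 1w, with en, inv, LamC and bab2 called higher in TFCs-CpCs and ptc, Wnt4 and fax called higher in ECs. At this age 2 went against the labels. hh, a marker of TFCs-CpCs, was at 5.35 and 7.65 cRPKM in TFCs-CpCs and 118 and 91.5 in ECs at 1w (log2 difference −3.64, edgeR adjusted p = 0.0011), and Wnt6, a marker of ECs, was at 34.4 and 29.2 against 10.9 and 3.06 (2.60, edgeR adjusted p = 0.028). At 4w, 5 of the 6 markers of TFCs-CpCs were higher in TFCs-CpCs (2 called), but so were 2 of the 4 markers of ECs (1 called). Wnt4, a marker of ECs, was at 307 and 1390 cRPKM in TFCs-CpCs and 371 and 257 in ECs at 4w. inv had a count of 0 in ECs 4w replicate 2, and no marker of either cell group was at 0 in both libraries of a group. Summed muscle markers stood at 31510 and 32220 cRPKM in TFCs-CpCs at 1w, 383 to 658 at 4w, 359 to 970 in ECs at 1w, 81.3 to 87.5 at 4w and 18.9 to 60.1 in the RNAi experiment. The 11 follicle cell markers summed to 2843 and 10480 cRPKM in TFCs-CpCs at 1w and 18690 and 43480 at 4w. In ECs they summed to 10340 to 11310 cRPKM at 1w, 8076 to 10630 at 4w, 2659 to 2662 in control ECs and 2242 to 5105 in Smu1 RNAi ECs. The 14 germline markers that are not among the 31 genes summed to 244 and 554 cRPKM in TFCs-CpCs at 1w, 63.8 and 179 at 4w, 174 and 219 in ECs at 1w, 93.2 and 443 at 4w, 110 and 113 in control ECs, and 75.5 and 137 in Smu1 RNAi ECs. No germline marker was at 0 in both libraries of any group, and the part of other cells in the values that follow was not tested. In bulk samples of this kind, fewer cells of a type and less RNA per cell cannot be told apart.

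piwi was the most abundant of the 30 genes in the mean of every group except TFCs-CpCs at 1w, where papi was higher. Its level was 28.8 and 104 cRPKM in TFCs-CpCs at 1w, 107 and 91.6 at 4w, 221 and 281 in ECs at 1w, 376 and 278 at 4w, 548 and 522 in control ECs, and 547 and 558 in Smu1 RNAi ECs. All 8 EC libraries were above all 4 TFCs-CpCs libraries. Among all genes with values, piwi ranked between 222 and 229 in the 4 libraries of the RNAi experiment, between 299 and 479 in the ageing ECs, and between 939 and 2897 in TFCs-CpCs. The gene lies at 2L:10982205-10987420 on the minus strand, 10398 bases from aub on the same strand at 2L:10997819-11001476, with 1 other gene wholly between them. Despite this closeness the pair differed in level: piwi exceeded aub 2.16- and 5.93-fold in TFCs-CpCs at 1w and 104- and 110-fold in control ECs.

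**Figure D1:**
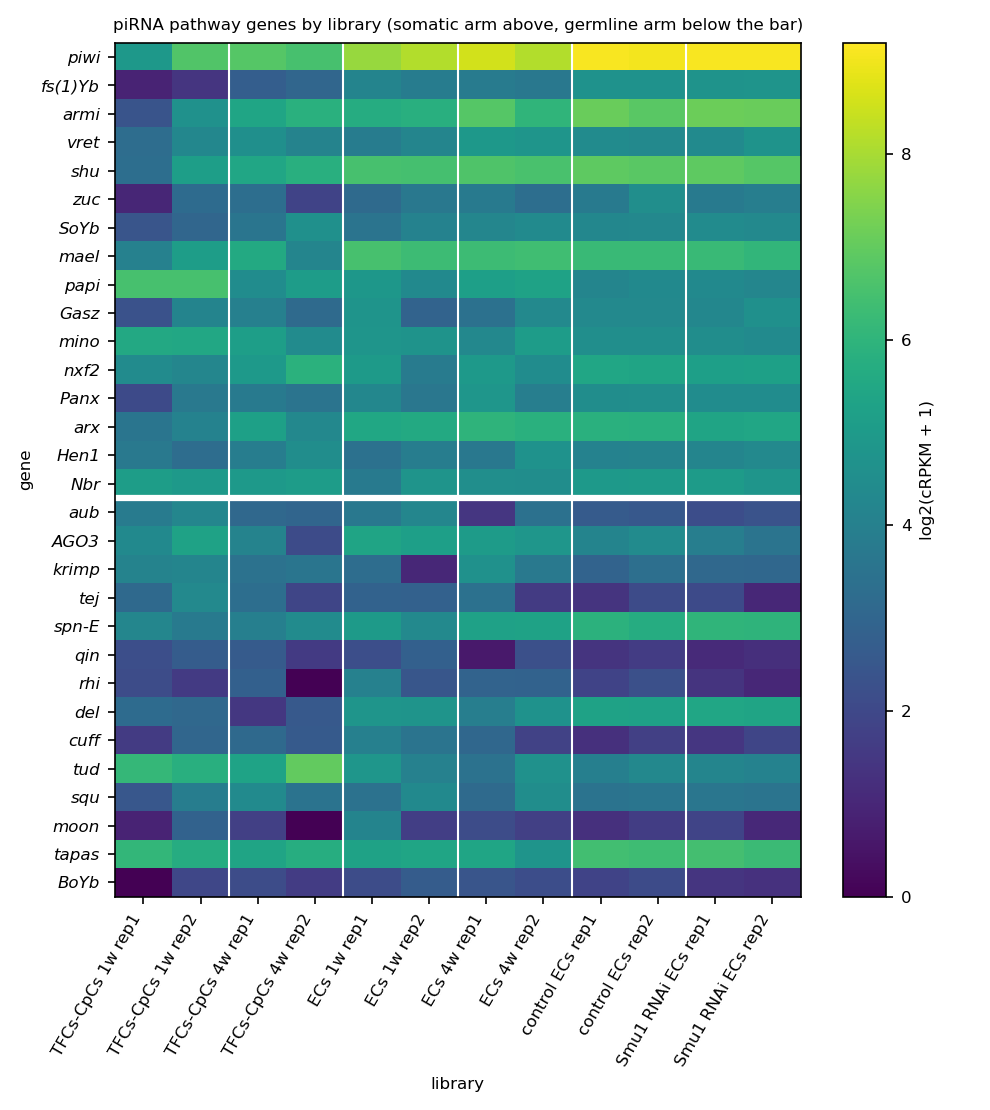
Level of the 30 piRNA pathway genes as log2(cRPKM + 1), shown by colour, with 1 column for each of the 12 libraries and the somatic arm (16 genes) above the germline arm (14 genes). piwi is the brightest row in ECs, with 548 and 522 cRPKM in control ECs, and the lower rows hold a small bright set (tud, tapas, spn-E and del) among genes of low level.

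The arms differed in how much of them was detected. In ECs, all 16 somatic arm genes reached at least 5 cRPKM in each of the 8 libraries, a level that 47.6% to 51.3% of all genes reached. Of the 14 germline arm genes, 9 to 12 did so in the ageing ECs and 7 or 8 in the RNAi experiment. In TFCs-CpCs, 10, 15, 16 and 15 somatic arm genes and 8, 12, 11 and 7 germline arm genes were at or above this level. The library that held only 10, TFCs-CpCs 1w replicate 1, had zuc at 0.99 cRPKM and fs(1)Yb at 0.89 cRPKM.

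The summed level of the somatic arm over that of the germline arm was 1.25 and 1.83 in TFCs-CpCs at 1w, 2.60 and 1.92 at 4w, 2.74 and 3.43 in ECs at 1w, 4.72 and 3.97 at 4w, 4.78 and 4.53 in control ECs, and 4.51 and 4.93 in Smu1 RNAi ECs. All 8 EC libraries were above all 4 TFCs-CpCs libraries. Much of this was piwi itself, which made 9.80% to 22.3% of the somatic sum in TFCs-CpCs, 31.6% to 39.5% in the ageing ECs and 45.9% to 48.0% in the RNAi experiment. Without piwi the ratio ran from 1.12 to 2.02 in TFCs-CpCs and from 1.88 to 2.86 in ECs, and the ranges overlapped. The ratio of the median somatic arm gene to the median germline arm gene gave another order: 1.24 and 1.36 in TFCs-CpCs at 1w, 3.17 and 4.22 at 4w, 1.73 and 1.42 in ECs at 1w, 3.14 and 2.36 at 4w, and 3.41 to 4.51 in the RNAi experiment. By this measure TFCs-CpCs at 4w were above the ageing ECs, so that the order of the cell groups depends on whether sums or medians are compared.

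Replicate error differed between groups and, within some groups, between arms. The median somatic arm gene differed 1.71-fold between the TFCs-CpCs replicates at 1w, and 7 of 16 differed at least 2-fold, with armi at 4.80-fold the most. In control ECs the median was 1.03-fold and no somatic arm gene differed 2-fold. For the germline arm the corresponding medians were 1.45-fold in TFCs-CpCs at 1w, 1.97-fold at 4w, 1.77-fold in ECs at 4w and 1.20-fold in control ECs. Smaller differences could be resolved in the RNAi experiment than in the ageing comparisons.

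The first comparison asked how the pathway differed between TFCs-CpCs and ECs of the same age. At 1w, 9 of the 30 genes passed edgeR's quasi-likelihood test, with p adjusted over all genes by the Benjamini-Hochberg method (adjusted p under 0.1 and at least a 2-fold difference, the thresholds used throughout), against a background of 31.2% of all genes tested (17.2% lower and 14.0% higher in TFCs-CpCs). The Yb body factor fs(1)Yb, piwi, the chaperone shu, mael, arx and the germline factor del were lower in TFCs-CpCs, and the mitochondrial proteins papi and mino and the germline factor tud were higher. Of these 9 genes, 7 belong to the somatic arm, 5 lower and 2 higher, and the share of called genes was close to the background. The cell groups also differed in reporter line, gate and number of cells sorted, which cannot be told apart from cell type. All 7 muscle markers were called higher in TFCs-CpCs at 1w and at 4w, with median log2 differences of 5.995 and 3.07, and their part in the calls was not tested.

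Among the Yb body factors, fs(1)Yb is a Tudor domain helicase needed for piRNA production in the soma only. Its level was 0.89 and 1.65 cRPKM in TFCs-CpCs at 1w against 16.6 and 13.4 in ECs at 1w, with no overlap. It had the largest difference of the 30 genes at this age, −3.20 on the log2 scale (SE 0.53, edgeR adjusted p = 0.0092), and stayed past the threshold when any 1 of the 4 libraries was left out. armi, the helicase that hands precursors to the nuclease, was at 4.22 and 24.1 cRPKM in TFCs-CpCs and 51.4 and 54.4 in ECs, a difference of −1.56 (SE 0.71, edgeR adjusted p = 0.16) that did not pass. The armi replicates of TFCs-CpCs at 1w differed 4.80-fold, and 99.6% of the exon bases of armi are shared on the same strand with CG46463, for which no values were found, and how reads were assigned between this pair is not known.

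Of the genes for the loading of Piwi and for its action in the nucleus, piwi, shu, mael and arx passed at 1w, while Panx (3.19 and 12.3 against 18.2 and 11.63 cRPKM) and nxf2 (20.5 and 17.7 against 31.3 and 13.1 cRPKM), which act together in nuclear silencing, overlapped between the cell groups and did not pass. piwi differed by −1.58 on the log2 scale at 1w (SE 0.56, edgeR adjusted p = 0.090). shu, an FKBP-type co-chaperone of PIWI loading, stood at 9.14 and 34.7 cRPKM in TFCs-CpCs and 91.9 and 87.9 in ECs, a difference of −1.68 (SE 0.59, edgeR adjusted p = 0.085). mael, an HMG-box protein needed for Piwi-directed silencing, was at 15.6 and 34.2 cRPKM against 91.3 and 77.6, a difference of −1.40 (SE 0.41, edgeR adjusted p = 0.057). arx, a zinc finger partner of Piwi, was at 10.9 and 16.1 cRPKM against 43.6 and 46.8, a difference of −1.38 (SE 0.47, edgeR adjusted p = 0.080). The groups did not overlap for any of these 4 genes, as for 67.6% of all genes tested, and the calls rested on few libraries. Without TFCs-CpCs 1w replicate 1, the library with the lowest level of the 12 for 11 of 16 somatic arm genes, the log2 differences were −0.92 for piwi, −1.02 for shu, −0.95 for mael and −1.14 for arx, with edgeR adjusted p from 0.14 to 0.28. Leaving out either EC library also ended all 4 calls, and leaving out TFCs-CpCs 1w replicate 2 ended that of arx.

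papi, a Tudor-KH protein on the mitochondrial outer membrane that holds PIWI proteins during the trimming of piRNA 3′ ends, went the other way. It was at 90.0 and 90.0 cRPKM in TFCs-CpCs at 1w against 28.0 and 19.8 in ECs at 1w, 2.29 higher on the log2 scale (SE 0.28, edgeR adjusted p = 0.0033). mino, a mitochondrial glycerol-3-phosphate acyltransferase, was at 46.2 and 45.2 cRPKM against 26.6 and 25.6, 1.18 higher (SE 0.25, edgeR adjusted p = 0.024). On cRPKM with limma the mino difference was 0.79 with a pseudocount of 1 and did not reach 2-fold, and 42.4% of its exon bases lie opposite exons of other genes, so that its value depends on whether strand was used in counting. Of the other mitochondrial and 3′ end factors, the nuclease zuc was at 0.99 and 8.39 cRPKM in TFCs-CpCs and 7.97 and 11.8 in ECs, and the trimming exonuclease Nbr at 33.8 and 30.5 against 12.7 and 26.3 (log2 difference 1.07, edgeR adjusted p = 0.14).

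In the germline arm 2 genes passed at 1w, in opposite directions. del, a subunit of the Rhino complex that licenses dual-strand clusters, was at 8.31 and 7.72 cRPKM in TFCs-CpCs and 26.9 and 26.0 in ECs, a difference of −1.35 (SE 0.33, edgeR adjusted p = 0.036), and the call was lost without either TFCs-CpCs library (edgeR adjusted p 0.106 and 0.146). tud, the Tudor scaffold of nuage and pole plasm, was at 69.7 and 55.0 cRPKM against 27.3 and 15.5, 1.93 higher (SE 0.32, edgeR adjusted p = 0.0098). The partners of del did not pass: rhi, the HP1 paralog that marks the clusters, was at 3.39 and 1.94 cRPKM against 15.5 and 4.50, and cuff at 2.03 and 7.28 against 15.0 and 10.7. aub, the PIWI protein that is loaded with antisense piRNAs in germ cells, was at 13.3 and 17.6 against 11.99 and 17.8 cRPKM, and those groups overlapped. Over the whole germline arm 6 of 14 differences were positive with a median of −0.19, over the somatic arm 6 of 16 with a median of −0.66, and over all genes tested the median was −0.19. The somatic median rested on the TFCs-CpCs libraries, at −0.02 without 1w replicate 1 and −1.51 without 1w replicate 2, and the germline median lay between −0.21 and 0.29 over the fits that left out 1 library.

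**Figure D2:**
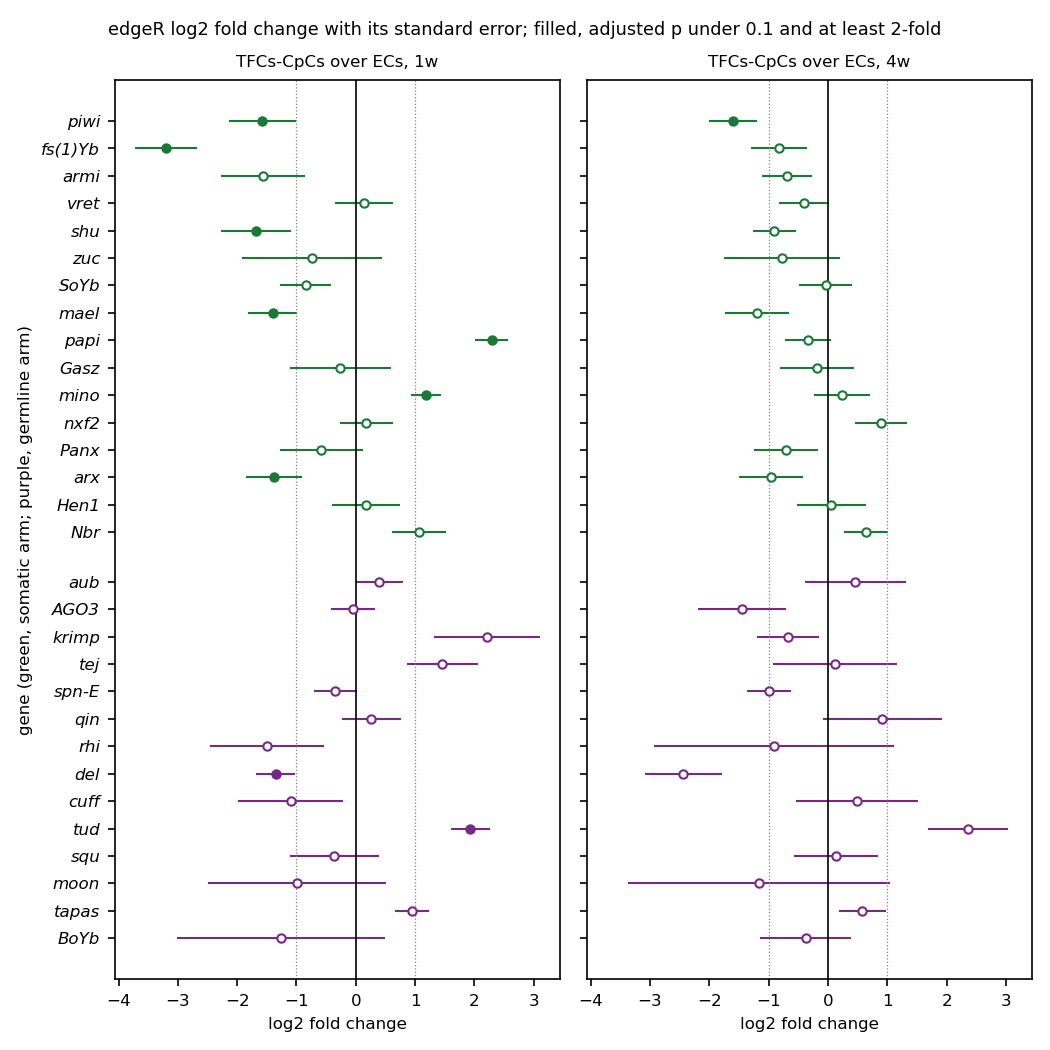
Log2 fold change of TFCs-CpCs over ECs at 1w (left) and 4w (right) for the 30 genes, with points for the edgeR estimate, bars for its standard error, green for the somatic arm and purple for the germline arm. Filled points passed the test: 9 genes at 1w, from fs(1)Yb at −3.20 to papi at 2.29, and piwi at −1.60 at 4w.

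At 4w the same comparison gave 1 called gene of 30, against 6.12% of all genes tested. piwi was 107 and 91.6 cRPKM in TFCs-CpCs and 376 and 278 in ECs, a log2 difference of −1.60 (SE 0.40, edgeR adjusted p = 0.096), and leaving out either EC library ended the call (edgeR adjusted p 0.57 and 0.37). del had a larger difference, −2.44 (SE 0.64), with 1.82 and 4.90 against 14.5 and 24.6 cRPKM, but its edgeR adjusted p was 0.11. tud was again on the opposite side, with 39.8 and 125 against 10.1 and 24.4 cRPKM, a difference of 2.36 (SE 0.68, edgeR adjusted p = 0.12). DESeq2's Wald test called del, tud and spn-E besides piwi, beside 1905 of all 9908 genes tested. fs(1)Yb was at 5.75 and 7.21 against 13.0 and 11.9 cRPKM at 4w, and mael at 46.7 and 17.2 against 77.9 and 83.2 cRPKM. Their log2 differences, −0.83 and −1.20, did not pass. Somatic arm differences were negative for 12 of 16 genes with a median of −0.55, and germline arm differences for 7 of 14 with a median of −0.13, beside −0.03 for all genes tested. When each library was left out, the somatic median ran from −0.72 to −0.40, and the germline median changed sign, from −0.74 without TFCs-CpCs 4w replicate 1 to 0.29 without replicate 2.

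The transcription factor tj, a Maf protein known to activate piwi in the somatic ovary, is not among the 31 genes but belongs beside piwi. It was at 36.8 and 45.1 cRPKM in TFCs-CpCs at 1w, 108 and 144 at 4w, 473 and 476 in ECs at 1w, and 711 and 501 at 4w. It was lower in TFCs-CpCs at both ages, with log2 differences of −3.17 at 1w (SE 0.26, edgeR adjusted p = 0.00081) and −2.16 at 4w (SE 0.44, edgeR adjusted p = 0.060). Of 31 other pathway genes measured (silencing cofactors, export and transcription factors, chaperones and splicing factors of piwi RNA), 6 passed at 1w, beside the 31.2% of all genes tested. This count was 2 at an adjusted p under 0.05 and 3 without either TFCs-CpCs library. Hsp83, the chaperone Hsp90, was higher (1.29), and tj, the promoter factor Trf2 (−1.79), the mitochondrial protein daed (−1.41), the export receptor Nxf3 (−1.40) and its cofactor Nxt1 (−1.11) were lower. At 4w Hsp83 (2.27) and tj passed, and neither did without either EC library.

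The ageing comparison in TFCs-CpCs asked whether the pathway changed from 1w to 4w. Of the 30 genes 1 passed, papi, against 5.18% of all genes tested. Its level fell from 90.0 and 90.0 cRPKM to 21.3 and 33.0, a log2 change of −2.003 (SE 0.37, edgeR adjusted p = 0.056). The replicates of papi at 1w were closer to each other than those of any other named gene at that age, and the groups did not overlap. The call did not hold when either 1w library was left out (log2 changes −1.94 and −2.08, edgeR adjusted p 0.29 and 0.20), which leaves 1 library against 2. Summed muscle markers fell over the same comparison, with all 7 of the muscle markers tested called lower, and whether muscle RNA contributed to papi was not tested.

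A wider set did not overlap between ages and differed at least 2-fold without passing, 7 of 30 genes with papi, against 27.0% of all genes tested. In the somatic arm these were fs(1)Yb, armi and SoYb, all higher in both 4w libraries. fs(1)Yb went from 0.89 and 1.65 to 5.75 and 7.21 cRPKM, a log2 difference of 2.10 (SE 0.64, edgeR adjusted p = 0.18). armi went from 4.22 and 24.1 to 41.0 and 56.8 cRPKM (1.57, SE 0.76, edgeR adjusted p = 0.39). SoYb, a relative of Yb that works in soma and germline, went from 4.42 and 7.13 to 11.0 and 23.3 cRPKM (1.30, SE 0.47, edgeR adjusted p = 0.24). vret, another Tudor protein of the Yb body, overlapped between ages and is not in this set. Whether Yb body factors changed as a group was not tested. fs(1)Yb, armi and SoYb are helicases or Tudor proteins of that body, and none of the 3 passed in the main edgeR fit. The 6 markers of TFCs-CpCs moved with them: all 6 differences were positive with a median of 1.94, their sum went from 249 and 317 to 504 and 1298 cRPKM, and 1 of them, en, was called (13.95 and 20.3, then 71.4 and 298 cRPKM). Their part in the values of fs(1)Yb, armi and SoYb was not tested. DESeq2's Wald test called fs(1)Yb and SoYb higher, and edgeR without a filter on low counts called armi and SoYb. All 3 were called by edgeR on all 12 libraries. These settings called 4, 4 and 6 of the 30 genes, beside 1423 of 9249, 1206 of 12610 and 1665 of 11862 genes tested.

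In the germline arm the genes of this set were lower in both 4w libraries. aub was at 13.3 and 17.6 cRPKM at 1w and 7.59 and 6.93 at 4w (−1.34, SE 0.40, edgeR adjusted p = 0.18). AGO3, its ping-pong partner, was at 19.6 and 38.0 and then at 16.5 and 3.26 cRPKM (−1.75, SE 0.82, edgeR adjusted p = 0.36). del was at 8.31 and 7.72 and then at 1.82 and 4.90 cRPKM (−1.54, SE 0.62, edgeR adjusted p = 0.29). DESeq2 called aub lower, edgeR without a filter on low counts called AGO3, and edgeR on all 12 libraries called AGO3 and del. Of all genes tested these settings called 1423 of 9249, 1206 of 12610 and 1665 of 11862. The summed germline markers were lower at 4w as well, 13 of 14 had a negative difference with a median of −1.59, and 1 of them, grk, was called. How much of the germline arm values follows the germline RNA in the fraction was not tested.

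rhi could not be placed at 4w. It had 3.39 and 1.94 cRPKM at 1w, and at 4w 6.15 in replicate 1 and a count of 0 in replicate 2, which allows up to 3 counts in that library. moon, the TFIIA paralog that brings polymerase to Rhino clusters, also had a count of 0 in that library. The fitted log2 difference of rhi was −0.02 with an SE of 2.25. piwi and mael did not separate by age in TFCs-CpCs: piwi differed by 0.36 (SE 0.59, edgeR adjusted p = 0.88) and mael by 0.15 (SE 0.63, edgeR adjusted p = 0.97), and their 1w and 4w libraries overlapped.

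Taken over the arms, 12 of 16 somatic arm differences with age in TFCs-CpCs were positive with a median of 0.37, and 10 of 14 germline arm differences were negative with a median of −0.60, beside a median of 0.04 for all genes. The somatic median rested on TFCs-CpCs 1w replicate 1 and was −0.10 without it. The germline median stayed between −0.90 and −0.38 when each of the 4 libraries was left out in turn. Of the 31 other pathway genes none was called by edgeR, and DESeq2 called 3, beside 1423 of all 9249 genes tested. With edgeR 3 had an unadjusted p under 0.05, beside 1602 of all 9249 genes tested. tj differed by 1.36 (SE 0.34, edgeR adjusted p = 0.12).

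**Figure D3:**
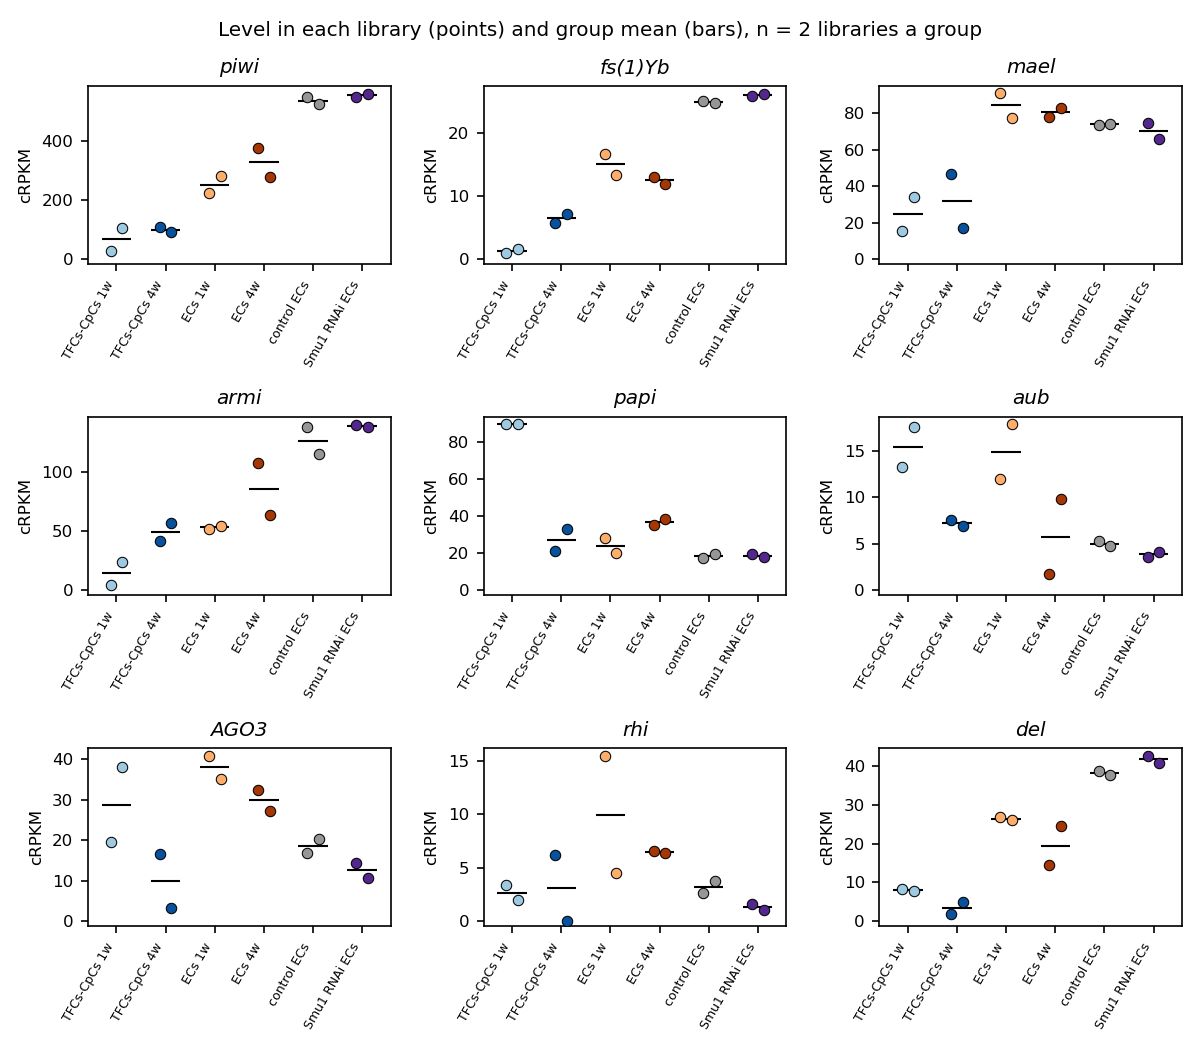
Level of 9 genes in cRPKM on a linear axis, with points for the 12 libraries and bars for group means (n = 2 libraries a group). papi stands at 90.0 cRPKM in both TFCs-CpCs libraries at 1w and at or below 38.2 elsewhere, while piwi, fs(1)Yb and mael are higher in all EC libraries than in all TFCs-CpCs libraries.

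In ECs the ageing comparison gave no called gene among the 30 with edgeR and none with DESeq2, against 0.103% of all genes tested with edgeR. An unadjusted p under 0.05 with edgeR was found for 3 genes (armi, spn-E and krimp), beside 570 of all 10675 genes tested. Muscle markers fell with age in ECs too: all 7 differences were negative with a median of −2.84, and 5 were called, which is 5 of the 11 genes called in all. piwi was at 221 and 281 cRPKM at 1w and 376 and 278 at 4w (0.44, SE 0.29, edgeR adjusted p = 1.0), fs(1)Yb at 16.6 and 13.4 and then 13.0 and 11.9 (−0.18, SE 0.43), and mael at 91.3 and 77.6 and then 77.9 and 83.2 (0.01, SE 0.30). Differences of these sizes were within the error of 2 libraries a group, which does not show that the levels were equal.

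In the germline arm 3 genes did not overlap between ages in ECs and differed at least 2-fold, against 15.4% of all genes tested. aub was at 11.99 and 17.8 cRPKM at 1w and 1.71 and 9.77 at 4w (−1.33, SE 0.68, edgeR adjusted p = 0.97). cuff, a protein of the Rhino complex that suppresses termination at clusters, was at 15.0 and 10.7 and then 7.51 and 2.52 cRPKM (−1.26, SE 0.90, edgeR adjusted p = 1.0). krimp, a Tudor protein that links Aubergine and AGO3, was at 8.78 and 1.01 and then 24.0 and 12.2 cRPKM (2.05, SE 0.74, edgeR adjusted p = 0.77). When no filter on low counts was used, edgeR called krimp higher, beside 63 of all 13379 genes tested. rhi was at 15.5 and 4.50 and then 6.55 and 6.38 cRPKM (−0.49, SE 0.84). The somatic arm had 14 of 16 positive differences with a median of 0.38 and the germline arm 11 of 14 negative ones with a median of −0.24, beside −0.03 for all genes tested. Leaving out each library in turn kept the somatic median between 0.25 and 0.58 and the germline median between −0.59 and −0.29. Of the 14 germline markers that are not among the 31 genes, 9 had a negative difference and 5 a positive one, with a median of −0.35. Their part in the germline arm values of ageing ECs was not tested. None of the 31 other pathway genes was called by edgeR or DESeq2. With edgeR 2 had an unadjusted p under 0.05, beside 570 of all 10675 genes tested.

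The difference between both ageing effects was tested as an interaction over 8 libraries. papi was called, 1 of 30 genes against 2.47% of all genes tested: its log2 change with age was −2.003 in TFCs-CpCs and 0.71 in ECs (28.0 and 19.8, then 35.5 and 38.2 cRPKM), a difference of −2.71 (SE 0.50, edgeR adjusted p = 0.029). Without ECs 1w replicate 2 the difference was −2.54 with an edgeR adjusted p of 0.14. With the replicate number of the labels as a block krimp was called too. Its difference was −3.51 (SE 0.88, edgeR adjusted p = 0.089) in place of −2.99 (SE 1.06, edgeR adjusted p = 0.24) without the block. fs(1)Yb differed by 2.29 (SE 0.71, edgeR adjusted p = 0.17), and DESeq2 called fs(1)Yb and krimp besides papi. Of all 11452 genes tested the block called 279 and DESeq2 908. aub and piwi had nearly the same fitted change in both cell groups, with differences of 0.01 (SE 0.96) and −0.07 (SE 0.71), errors too wide to call the changes alike. Among the other pathway genes edgeR and DESeq2 called none. With edgeR 1 had an unadjusted p under 0.05, beside 1579 of all 11452 genes tested.

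The RNAi experiment asked whether loss of Smu1 from adult ECs changed the pathway. Smu1 itself stood at 26.4 and 23.6 cRPKM in control ECs and 4.17 and 5.51 in Smu1 RNAi ECs, −2.34 on the log2 scale (SE 0.19, edgeR adjusted p = 6.4e-05). None of the 30 genes was called by edgeR, DESeq2 or any other setting tried, against 1.11% of all genes tested in the main edgeR fit. With edgeR 4 had an unadjusted p under 0.05 (arx, AGO3, rhi and BoYb), beside 1088 of all 9933 genes tested. With replicates this close, standard errors were small for the abundant genes. piwi went from 548 and 522 to 547 and 558 cRPKM (0.08, SE 0.12), fs(1)Yb from 25.0 and 24.8 to 25.8 and 26.2 (0.10, SE 0.10), mael from 73.9 and 74.1 to 74.9 and 66.0 (−0.04, SE 0.10), and armi from 137 and 115 to 139 and 138 (0.17, SE 0.12). The somatic arm had a median of 0.03 and a range from −0.39 for arx to 0.25 for vret.

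arx showed the largest difference of the somatic arm. It was at 56.2 and 55.4 cRPKM in control ECs and 40.5 and 42.2 in Smu1 RNAi ECs. The log2 difference was −0.39 (SE 0.13, edgeR adjusted p = 0.21). In the germline arm rhi was the only gene that differed at least 2-fold without overlap, against 7.55% of all genes tested. It was at 2.63 and 3.77 cRPKM in control ECs and 1.62 and 1.03 in Smu1 RNAi ECs, from 64 and 82 counts to 39 and 21, with a log2 difference of −1.23 (SE 0.47, edgeR adjusted p = 0.34). AGO3 was at 16.8 and 20.4 and then 14.5 and 10.6 cRPKM (−0.53, SE 0.16, edgeR adjusted p = 0.17). aub was at 5.27 and 4.74 and then 3.56 and 4.12 cRPKM (−0.35, SE 0.23, edgeR adjusted p = 0.64). The germline arm as a whole had 7 positive and 7 negative differences with a median of −0.01, beside 0.00 for all genes. The 14 germline markers also had 7 positive and 7 negative differences, with a median of 0.03, and 1 of them was called lower. Their part in the values of rhi, AGO3 and aub was not tested. None of the 31 other pathway genes was called by edgeR or DESeq2. With edgeR 2 had an unadjusted p under 0.05, beside 1088 of all 9933 genes tested. Of the 31 genes 20 had positive differences and 11 negative ones, with a median of 0.06. All 11 silencing cofactors were positive (median 0.11, median SE 0.11), and all 3 chaperones were negative.

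**Figure D4:**
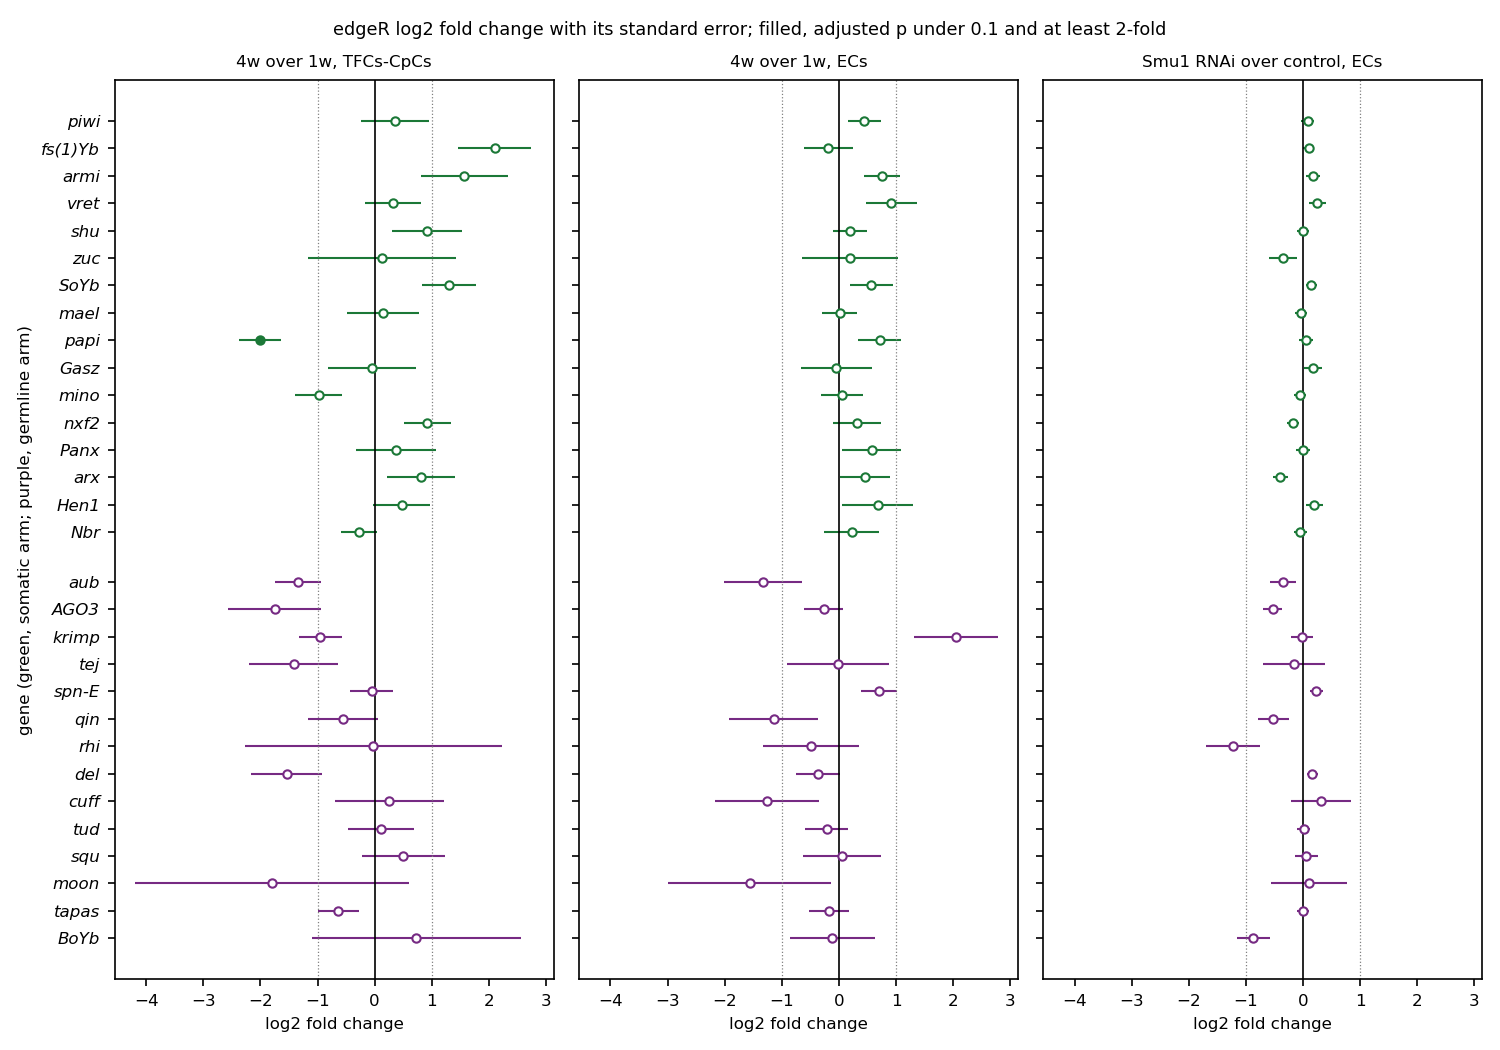
Log2 fold change of 4w over 1w in TFCs-CpCs (left), of 4w over 1w in ECs (middle) and of Smu1 RNAi over control ECs (right) for the 30 genes on a shared axis, with points for the edgeR estimate, bars for its standard error, green for the somatic arm and purple for the germline arm. The only filled point, a gene that passed the test, is papi at −2.003 in TFCs-CpCs, and the bars are short in the RNAi experiment.

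Within the germline arm the levels in ECs fell into unlike sets. In the RNAi experiment, where summed germline markers were at 75.5 to 137 cRPKM, the Tudor protein tapas was at 75.7 to 85.8 cRPKM over the 4 libraries, the helicase spn-E at 51.4 to 64.3 and del at 37.7 to 42.7. Each was above every one of the 14 germline markers in all 4 libraries, whose highest value, for dhd or grk, was 19.6 to 35.0. These ranges do not overlap with each other, so that the order tapas, spn-E, del held in each library. AGO3 (10.6 to 20.4 cRPKM), tud (14.8 to 18.6) and squ (10.3 to 11.2), a nuage component, formed a middle set, and AGO3 overlapped with both others. Of squ, 16.25% of exon bases are shared with grp on the same strand. The 8 remaining genes were lower: krimp at 6.55 to 9.15, aub at 3.56 to 5.27 and BoYb, rhi, tej, cuff, moon and qin at 1.02 to 3.77 cRPKM, ranges that overlapped among those last 6.

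del and rhi act in the same complex in germ cells, yet del exceeded rhi in each EC library and most in the RNAi experiment. In the ageing ECs del was at 26.9 and 26.0 cRPKM at 1w and 14.5 and 24.6 at 4w, spn-E at 30.9 and 19.1 and then 37.5 and 38.6, and tapas at 38.0 and 41.2 and then 41.2 and 25.9. In TFCs-CpCs tapas was at 67.9 and 51.0 and then 40.9 and 51.8 cRPKM, spn-E at 17.8 and 12.4 and then 14.8 and 20.6, and tud was the highest germline arm gene in 3 of 4 libraries. The ageing and RNAi experiments differed in age and genotype, and their levels are set side by side without a test. The temperature at which the females of the ageing experiments were kept is not stated for the sorted cells.

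**Figure D5:**
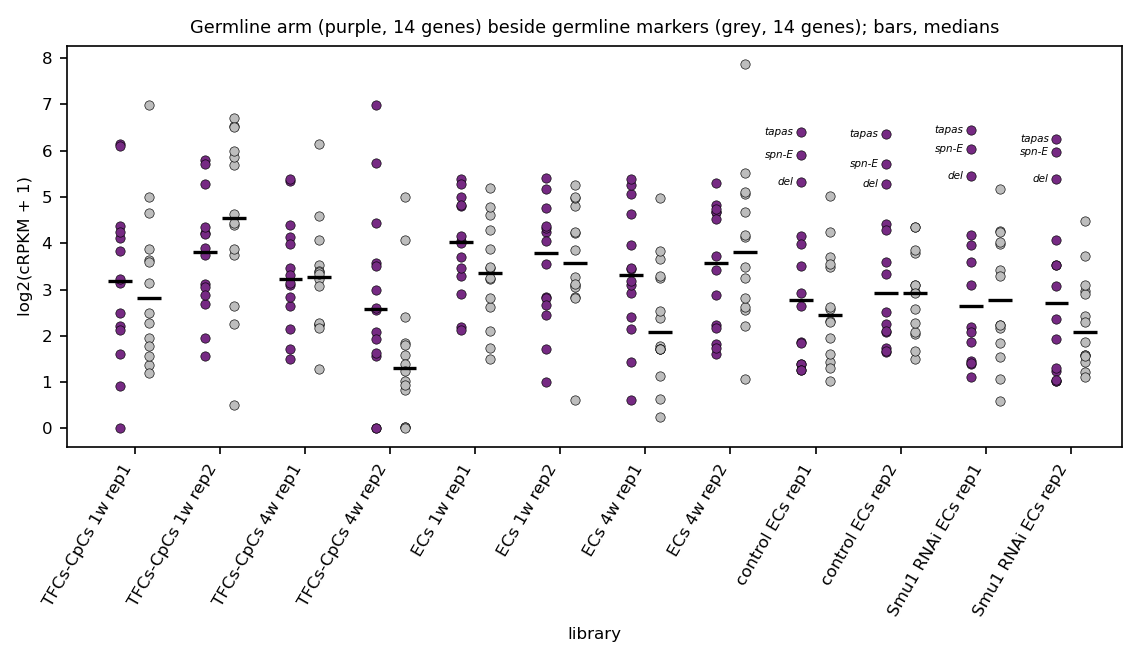
Levels as log2(cRPKM + 1) of the 14 germline arm genes (purple) and of 14 germline markers that are not among them (grey) in each of the 12 libraries, with bars for medians. In the 4 libraries of control and Smu1 RNAi ECs the 3 labelled genes tapas, spn-E and del lie above every grey point, whose highest value there was 35.0 cRPKM.

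The somatic arm was ordered in ECs as well. In control ECs piwi (522 to 548 cRPKM) stood apart, followed by armi (115 to 137) and shu (114 to 119), which overlapped, then mael (73.9 to 74.1), arx (55.4 to 56.2) and nxf2 (40.2 to 42.9), a nuclear export factor variant that works with Panx in silencing. The other 10 genes lay between 13.0 and 31.2 cRPKM and included Panx (21.8 and 22.1), zuc (13.0 and 22.5), Gasz (18.9 and 19.3), vret (20.5 and 19.1), SoYb (18.2 and 18.8), fs(1)Yb (25.0 and 24.8) and the piRNA methyltransferase Hen1 (15.9 and 16.3). Of nxf2, 22.0% of exon bases are shared with neighbours, mostly on the same strand, and of mael and Nbr 11.5%, so that these levels carry the uncertainty of counting at overlaps.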

How the data were processed

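RNA of sorted cells was amplified and sequenced as strand-specific libraries in the study, and whether strand was used in counting is not given in the sources used here. The authors ran vast-tools against dm6. They deposited a raw count of reads per gene in each library, without normalization, and a corrected RPKM (cRPKM), in which the reads are divided by mappable transcript length and by mapped reads. Of 14489 genes listed, 13726 had values. Groups were taken from the sample labels. Symbols were matched through RefSeq names and BDGP6 coordinates, and exon bases shared with other genes were computed from BDGP6.

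A fit used the 4 libraries compared (8 for the interaction) and edgeR 4.0.16 in R 4.3.3 (TMM, quasi-likelihood test). Genes needed 10 counts or more in 2 libraries or more. Adjustment by Benjamini-Hochberg ran over all genes tested, and a gene was called where its adjusted p was under 0.1 and its log2 fold change was 1 or more in size. The standard error is the absolute log2 fold change over the square root of F. The step was tested on simulated counts with the same dispersion for all genes and large changes planted in well-counted genes only. That check does not measure power or false calls for differences of the sizes reported here. Alternatives were DESeq2 1.42.0, DESeq2 size factors in edgeR, no filter, a threshold of 0.05, a joint fit of all 12 libraries, a replicate block, limma 3.58.1 on log2(cRPKM + 1) and log2(cRPKM + 0.1), and leaving out each library. The arm medians under these settings were added after the values had been seen.

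Values for every library were given for piwi, fs(1)Yb, mael, aub and rhi, for genes called in a comparison, and for genes of non-overlapping groups with at least a 2-fold difference with age or RNAi. Other values were given by level or range. The members, arms and lists were chosen with earlier results of these data known. Both ages were split from the same batch in each replicate by the study's account, and ECs carry the same numbers at both ages. Same-numbered replicates deviated together with a correlation of 0.218 for control and Smu1 RNAi ECs, −0.035 for the ageing ECs and −0.041 for TFCs-CpCs, and the main fit had no block. Nothing links the libraries of a group to separate animals beyond the pools, so p-values measure the spread between these samples. A count of 0 was read as up to 3 counts, for counting error only. vas, the pathway gene sov, the muscle marker wupA and the flam locus were not analysed here. Python 3.11.15, pandas 2.3.3 and matplotlib 3.10.9 were used for summaries and figures.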

Additional observations from a re-analysis of the deposited data

Results flagged for a closer look

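The ageing effect on papi differed between the cell groups by the test of the difference itself. papi stood at 90.0 and 90.0 cRPKM in TFCs-CpCs at 1w and 21.3 and 33.0 at 4w, and at 28.0 and 19.8 in ECs at 1w and 35.5 and 38.2 at 4w, so that the log2 changes were −2.003 and 0.71 and their difference −2.71 (SE 0.50, edgeR adjusted p = 0.029). The TFCs-CpCs libraries at 1w stood above the other 10 libraries, which ran from 17.3 to 38.2 cRPKM. Those 1w libraries also held summed muscle markers of 31510 and 32220 cRPKM, and the part of muscle RNA in the papi value was not tested.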

How the results depend on the processing

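Counts of the 30 genes called moved with the settings, and so did counts of all genes called, also when a library was left out. No count here is read as a result about the 30 genes. Counts over all genes are given at the end of this section. With age in TFCs-CpCs 1 gene was called, against 0 at an adjusted p under 0.05, 4 with DESeq2, 4 without a filter on low counts, 6 with all 12 libraries in one fit, and 0 to 6 when each library was left out, with 0 without either 1w library and 6 without TFCs-CpCs 4w replicate 1. With age in ECs 0 became 1 without a filter. Between cell groups at 1w 9 became 5 at an adjusted p under 0.05, 12 with DESeq2, 12 without a filter, 13 with 12 libraries and 5 to 10 when each library was left out, with 5 without TFCs-CpCs 1w replicate 1. At 4w 1 became 0 at an adjusted p under 0.05, 4 with DESeq2, 3 without a filter, 3 with 12 libraries and 0 to 8 when each library was left out, with 0 without either EC library and 8 without TFCs-CpCs 4w replicate 1. For the interaction 1 became 3 with DESeq2, 2 without a filter, 2 with 12 libraries, 2 with the replicate block and 0 to 3 when each library was left out, with 0 without ECs 1w replicate 2. Where an arm was left with 1 library, that library was assumed to vary like the others. In the RNAi experiment every setting gave 0.

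Directions turned for genes with small differences. rhi with age in TFCs-CpCs was 0.0072 with 12 libraries and −10.59 to 1.03 when each library was left out, piwi −0.27 to 1.46 and mael −0.75 to 0.75. In ECs rhi ran from −1.10 to 0.49 and mael from −0.044 to 0.040, with −0.063 and −0.064 for mael by limma with pseudocounts of 1 and 0.1. With Smu1 RNAi mael was 0.00048 with 12 libraries and −0.11 to 0.035 when each library was left out. Over 390 alternatives of 33 values of single genes, 332 kept direction and side of the threshold, 29 lost a call, 16 gained one and 13 turned direction, and the cause was not tested. Of those values the replicate block could be fitted for 23, and none of the 23 gained or lost a call. The called ones were papi with age in TFCs-CpCs and papi in the interaction, and the others stayed uncalled. Both of these block fits paired TFCs-CpCs by label number, which may not be the true pairing. Outside those values the block gained krimp in the interaction. It moved the count of all genes called with age in ECs from 11 to 18 and in the RNAi experiment from 110 to 259.

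Counts of all genes called with DESeq2, no filter and 12 libraries are given in that order. With age in TFCs-CpCs they were 1423 of 9249, 1206 of 12610 and 1665 of 11862, in place of 479 of 9249. In ECs they were 113 of 10675, 63 of 13379 and 40 of 11862, in place of 11 of 10675. Between cell groups at 1w they were 3624 of 10173, 3160 of 13238 and 4761 of 11862, in place of 3172 of 10173. At 4w they were 1905 of 9908, 1287 of 13206 and 2608 of 11862, in place of 606 of 9908. For the interaction they were 908 of 11452, 566 of 13525 and 931 of 11862, in place of 283 of 11452. With 12 libraries the RNAi experiment gave 1 of 11862 in place of 110 of 9933. At an adjusted p under 0.05 edgeR called 287 genes with age in TFCs-CpCs, 1987 between cell groups at 1w and 224 at 4w. The median of all genes moved to as much as 0.26 with age in TFCs-CpCs and to −0.63 between cell groups at 1w. With 2 libraries a group, differences of low genes such as rhi, moon and BoYb were not resolved.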
